A study of Mus musculus with 18 samples.

Results

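The genes described here make cholesterol or control its making: 26 genes, chosen by symbol, out of 21899 gene IDs measured by RNA sequencing in mouse inguinal fat. They comprise 19 enzymes of the route and 7 genes around it. Of the enzymes, 8 belong to the mevalonate steps, 3 lead to lanosterol and 8 lead from lanosterol to cholesterol. The remaining members are 6 genes that control SREBP transcription factors and 1 sterol carrier. All 26 symbols were found on both days, and all 26 passed the filter on low counts in every comparison.

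Cells build cholesterol from acetyl-CoA through mevalonate, isoprenoid units, squalene and lanosterol, and side branches of the route supply lipid anchors for proteins and the tail of coenzyme Q. SREBP2, encoded by Srebf2, is held in the endoplasmic reticulum with its escort SCAP while sterols are plentiful, because INSIG proteins retain the pair there. When sterols run low, the pair moves to the Golgi, where a pair of proteases frees the part of SREBP2 that enters the nucleus and raises transcription of most genes of the route, Insig1 among them. In fat, adipocytes keep a large pool of cholesterol around and within the lipid droplet, and most of the body's new sterol is made in other tissues.

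The animals were male C57BL/6J mice into which cells of Lewis lung carcinoma (LLC), a lung tumour line of this species, or only phosphate-buffered saline (PBS) had been placed under the skin. The inguinal depot, a white fat pad beneath the skin, was taken at day 21, named cachexia by the labels, or at day 7, named pre-cachexia. The later day had 5 LLC and 4 PBS libraries and the earlier day another 5 and 4, and the labels give no genetic change in any group. As a model this is a transplanted line and not a tumour that arose in place, the controls received no cells of any kind, and the whole depot was sequenced. The titles number the libraries and do not say that each is a separate mouse, and the p-values therefore rest on the spread among these libraries, some of which may be technical.

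Total counts ran from 14566155 to 18969387 per library. Adipocyte markers, a list of 8 that includes Adipoq, Plin1 and Fabp4, summed to 40650.0 to 73630.0 TPM (transcripts scaled to a common total per library and corrected for length) in day 21 LLC libraries and 53500.0 to 62790.0 TPM in day 21 PBS libraries, so the label of the tissue holds. Several libraries stood apart. At day 21, LLC library 1 was highest for macrophage markers (4507 TPM) and for cell cycle markers (162 TPM), and LLC library 3 held 1257 TPM of B cell markers against at most 4.90 TPM in the other 4 LLC libraries. PBS library 4 of day 21 had 2667 TPM of macrophage markers against 208 to 409 TPM in the other 3 PBS libraries. Skeletal muscle markers reached 1567 TPM in LLC library 2 and 4145 TPM in PBS library 1 at day 21, and 1495 TPM in LLC library 3 and 5312 TPM in PBS library 3 at day 7.

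The promoters of these genes were searched for a pair of short sequences that are textbook parts of sterol-regulated promoters, in the 250 bases before the transcription start that RefSeq gives on GRCm38.p6. One motif was the core of a sterol response element, TCACNCCAC, and the other the box bound by NF-Y, GATTGG, which reads CCAATC on the other strand. Both strands were read. A window was available for 22 of the 26 genes. The NF-Y box stood in the window of 14 of those 22 genes, or in 14 of their 28 windows, beside 14.6% of all 32851 promoter windows. The sterol response core stood in 1 of the 28 windows, that of Hmgcs1, beside 1.05% of all windows, and 0 of the 28 held both motifs, beside 0.103%. The stretches below come from some of the genes that held a motif and were measured lower in LLC fat at day 21. Srebf2 was added as the regulator, and capitals mark the motif. Pmvk, Nsdhl, Acat2 and Insig1 were also measured lower and held neither motif in their windows. The NF-Y box also stood in a window of Ebp, Ggps1, Hsd17b7, Cyp51 and Insig2, which differed less.
Hmgcs1: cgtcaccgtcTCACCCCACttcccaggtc
Mvk: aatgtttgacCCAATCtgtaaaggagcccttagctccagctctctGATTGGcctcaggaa
Idi1: gcctccagctGATTGGcgagcccggg
Sc5d: gccggctgctGATTGGccggctgcct
Lss: gtgatgctctGATTGGccgagctcgc
Tm7sf2: tcccagcgctGATTGGctactgtgct
Srebf2: ttcgcgcgccGATTGGctaatgcaag
Each is written from its 5′ end along the strand of its gene. Hmgcs1 lies at chr13:119690204-119690232 on the plus strand, with the sterol core starting 137 bases before the start site. Mvk lies at chr5:114444209-114444268 on the plus strand and holds 2 NF-Y boxes, at 50 and 15 bases before the start. Idi1 lies at chr13:8885550-8885575 and Lss at chr10:76531532-76531557, both on the plus strand. Sc5d lies at chr9:42264310-42264335 and Tm7sf2 at chr19:6067883-6067908, both on the minus strand. Srebf2 lies at chr15:82147123-82147148 on the plus strand. The Idi1 and Tm7sf2 stretches fall inside the span that GENCODE gives for their genes, and the others lie before it. A match of letters is a description and not evidence of binding in this tissue.

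Compared per unit of transcript length, the 26 genes spanned a wide range of levels in fat. Mean TPM over the 18 libraries was highest for Insig1 (262 TPM), Hmgcs1 (153 TPM), Acat2 (127 TPM) and Sc5d (99.7 TPM). It was lowest for Hsd17b7 (4.93 TPM), Stard4 (6.41 TPM), Tm7sf2 (8.23 TPM) and Mbtps2 (8.44 TPM). The transcription factor itself, Srebf2, averaged 22.1 TPM, and its escort Scap 21.5 TPM. The most abundant member was therefore Insig1, the gene of a protein that retains SREBP2 and SCAP. The 8 mevalonate genes summed to 282 to 429 TPM in day 21 LLC fat and 465 to 649.6 TPM in day 21 PBS fat, more in each library than the 8 genes from lanosterol to cholesterol, at 117 to 233 TPM in LLC fat and 183 to 359.8 TPM in PBS fat.

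**Figure D1:**
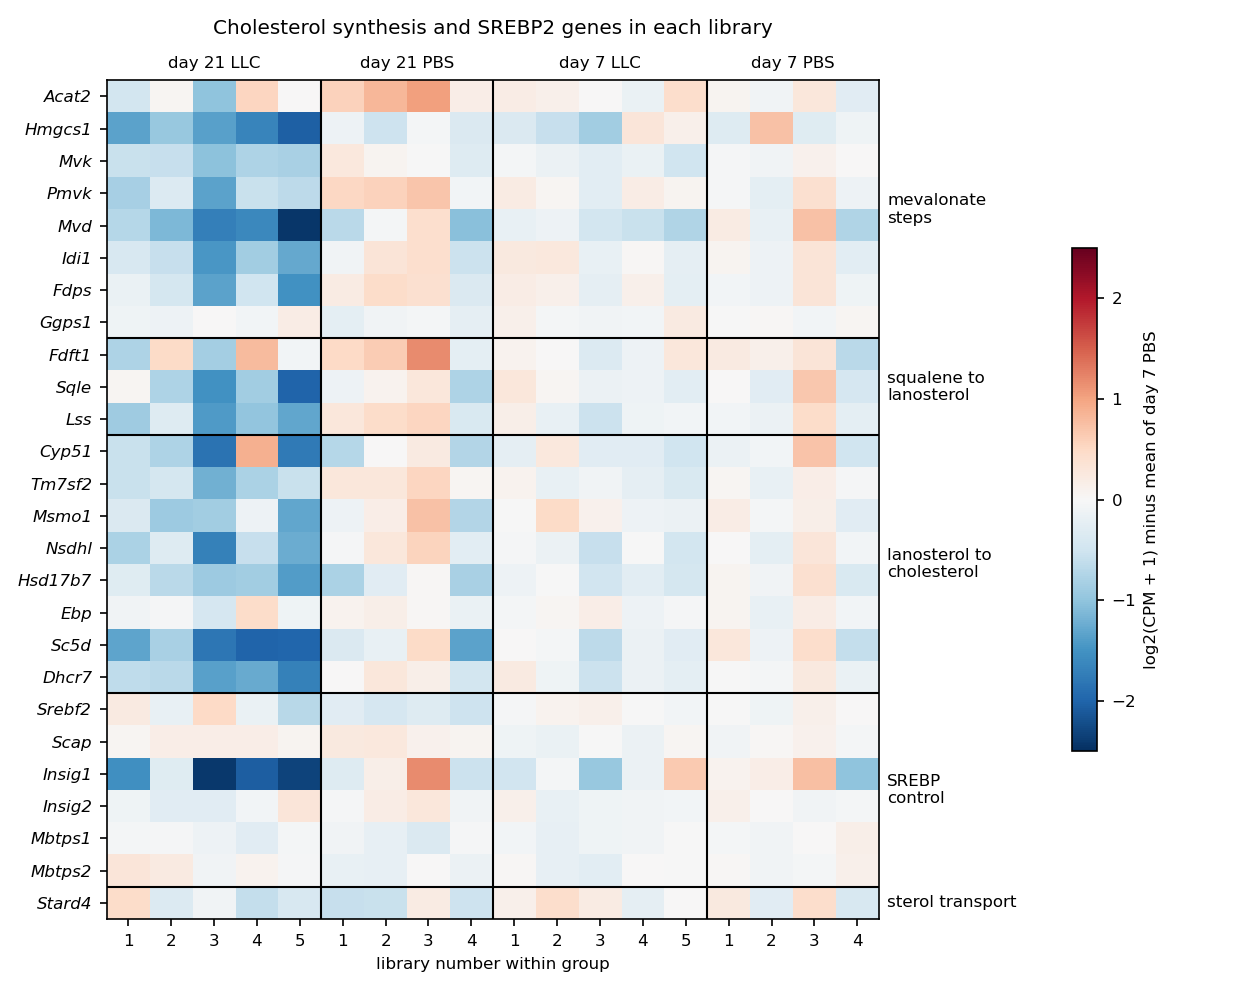
Level of each of the 26 genes (rows, grouped by role) in each of the 18 libraries (columns, by group), as log2(CPM + 1), CPM being counts scaled to a common library size, minus the gene's mean in day 7 PBS libraries. Most enzyme rows and the Insig1 row are below 0 in the 5 day 21 LLC libraries, while the Ggps1, Scap and Mbtps1 rows vary little.

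At day 21, in tumour-bearing mice with cachexia, the enzymes of cholesterol synthesis were measured at lower levels than in PBS mice along the whole route. The summed level of the 19 enzymes was 724, 657, 469, 507 and 447 TPM in the 5 LLC libraries and 987, 938, 1132 and 703 TPM in the 4 PBS libraries. The sums overlapped at 1 point: PBS library 4, the lowest PBS library, lay just under LLC library 1. The estimate was below 0 for 18 of the 19 enzymes and for 21 of all 26 genes, with a median log2 fold change of -0.81 beside 0.02 over the 13564 genes tested, and the directions of Ebp and Scap turned when TPM were used in place of scaled counts. In bulk tissue, fewer cells of a type and less RNA per cell cannot be told apart.

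By edgeR's quasi-likelihood test with Benjamini-Hochberg adjustment over all genes, 0 of the 26 passed 0.05 at day 21, where only 0.0885% of all genes passed. The unadjusted p was under 0.05 for 14 of the 26, all lower in LLC, beside 23.3% of all genes. DESeq2 called 12 of the 26, beside 11.6% of all genes. A fit of all 18 libraries that shared 1 estimate of spread called 14 of the 26, beside 19% of all genes. The authors' deposited table gives an FDR under 0.05 to 8 of the 26, beside 5.29% of its rows. In 6 genes, Hmgcs1, Mvk, Pmvk, Tm7sf2, Nsdhl and Dhcr7, no LLC library reached the lowest PBS library, beside 4.47% of all genes tested. Without PBS library 4, edgeR called 9 of the 26, beside 9.30% of all genes, and without LLC library 2 it called 4, beside 0.709%.

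**Figure D2:**
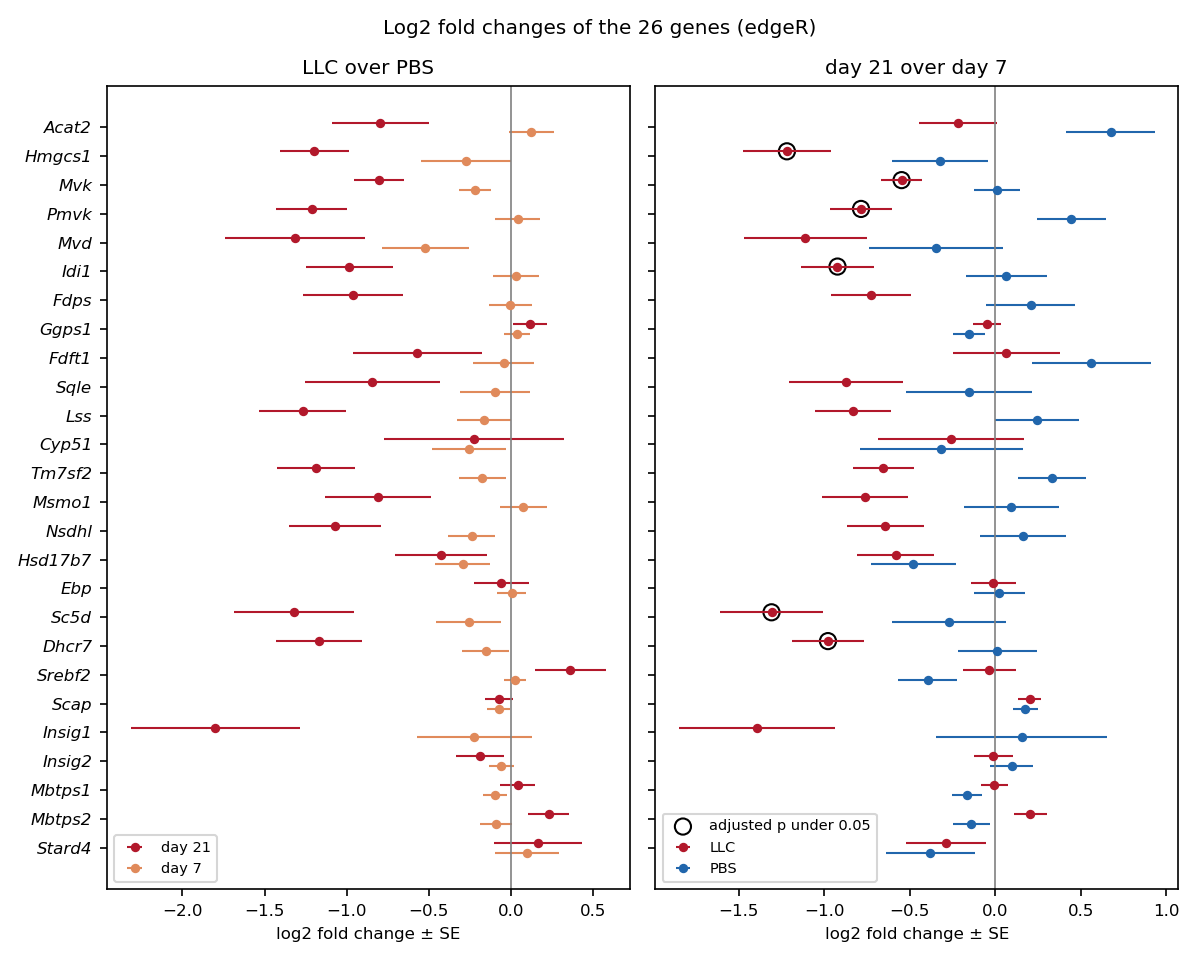
Log2 fold change of each gene with its standard error, LLC over PBS at day 21 and day 7 (left) and day 21 over day 7 within LLC and within PBS (right), with rings around adjusted p under 0.05. Left, 18 of the 19 enzymes lie left of 0 at day 21 while the day 7 points lie between -0.52 and 0.12. Right, the 6 ringed points are all within LLC.

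The mevalonate steps carried some of the most separated genes. Hmgcs1 encodes the cytosolic HMG-CoA synthase, which commits acetyl units to the route. Its levels, in CPM after TMM scaling over all 18 libraries, were 133, 176, 132, 108 and 81.6 CPM in day 21 LLC fat and 312, 237, 328 and 263 CPM in day 21 PBS fat. The groups did not overlap, and the highest LLC library was well under the lowest PBS library. The log2 fold change was -1.20 ± 0.21 (SE), with an edgeR adjusted p of 0.057, a DESeq2 adjusted p of 4.11e-05 and an exact two-sided permutation p of 0.0159, the smallest that 5 against 4 libraries allow.

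Mvk encodes mevalonate kinase. It measured 17.5, 17.3, 12.4, 15.01 and 14.4 CPM in LLC fat and 31.5, 27.3, 25.95 and 20.8 CPM in PBS fat at day 21. All LLC libraries again lay below all PBS libraries, at a log2 fold change of -0.80 ± 0.15 (edgeR adjusted p = 0.0634, DESeq2 0.000402). Pmvk, phosphomevalonate kinase, which adds the next phosphate, measured 28.02, 39.3, 19.2, 34.1 and 31.7 CPM in LLC fat and 72.9, 75.6, 81.9 and 47.99 CPM in PBS fat. Its groups did not overlap either, with PBS library 4 far below the other 3 PBS libraries, and its log2 fold change was -1.21 ± 0.22 (edgeR adjusted p = 0.0587, DESeq2 0.000107).

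Idi1, the isomerase that readies isoprenoid units for joining, measured 48.5, 42.9, 22.9, 34.8 and 26.1 CPM in LLC fat and 60.95, 81.1, 87.03 and 44.2 CPM in PBS fat. PBS library 4 fell among the LLC libraries, and the log2 fold change was -0.98 ± 0.26 (edgeR adjusted p = 0.0926). The other steps were ordered alike with more overlap. Mvd, the decarboxylase that yields the isoprenoid unit, ran 2.73 to 11.3 CPM in LLC fat and 8.79 to 25.8 CPM in PBS fat, a log2 fold change of -1.32 ± 0.43. Fdps, farnesyl pyrophosphate synthase, ran 11.5 to 30.9 CPM in LLC fat and 27.1 to 48.7 CPM in PBS fat, at -0.96 ± 0.31. Acat2, the cytosolic thiolase at the entry to the route, ran 66.4 to 196 CPM in LLC fat and 151 to 275 CPM in PBS fat, at -0.80 ± 0.29. Ggps1 stood apart from its neighbours. It makes the geranylgeranyl lipid for protein anchoring, off the path to cholesterol, and ran 37.1 to 46.4 CPM in LLC fat and 34.2 to 39.4 CPM in PBS fat, a log2 fold change of 0.11 ± 0.10 with an approximate interval of -0.09 to 0.32 at 95%.

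**Figure D3:**
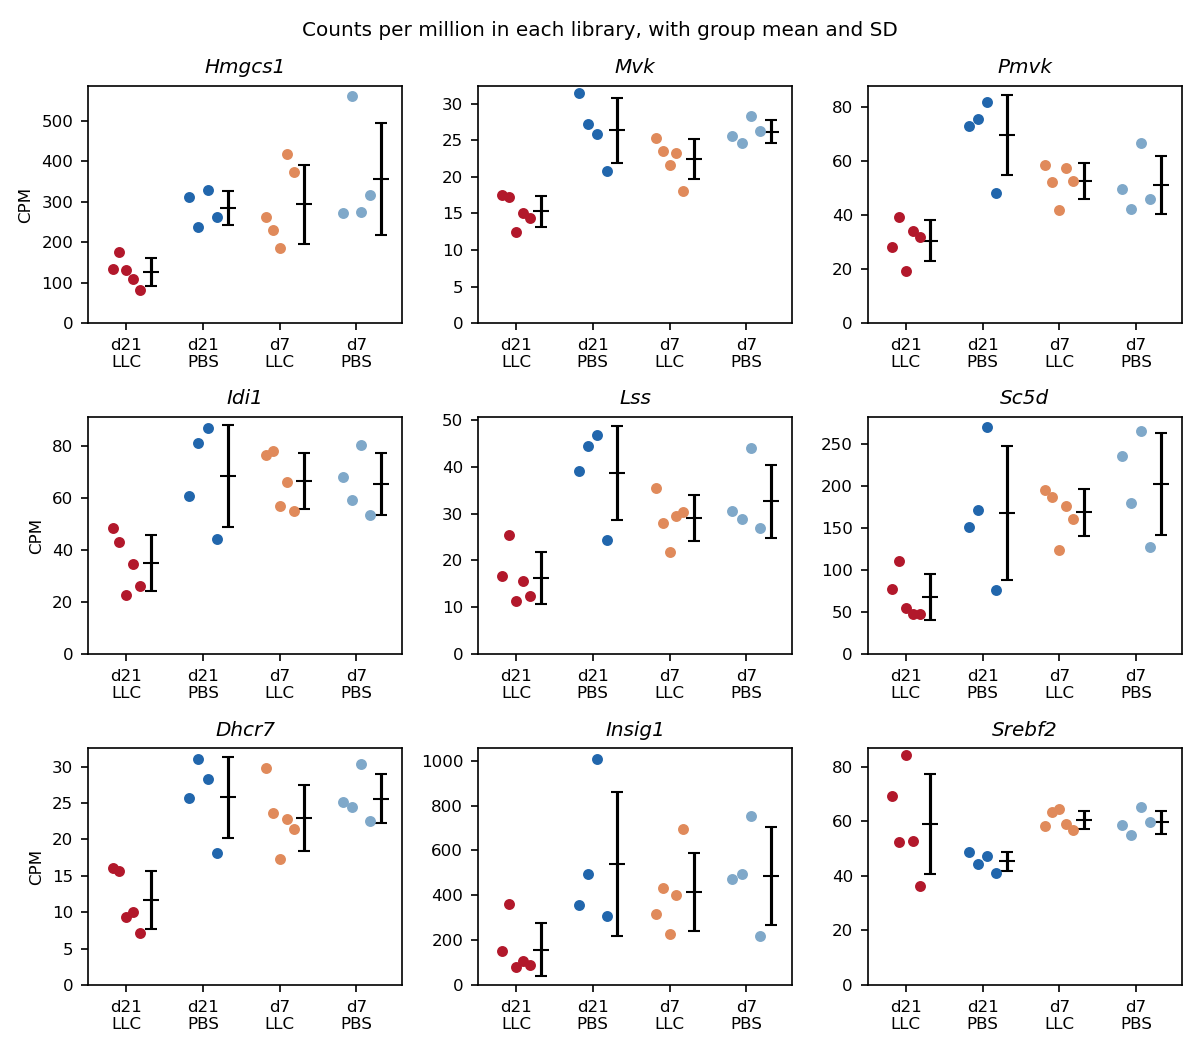
CPM of 9 genes in each library (points) with group mean and SD (bars), by group, each axis starting at 0. For Hmgcs1, Mvk, Pmvk and Dhcr7 all 5 day 21 LLC libraries lie below all 4 day 21 PBS libraries. Srebf2 shows no such order.

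Between farnesyl pyrophosphate and lanosterol, Lss showed the largest difference. It encodes lanosterol synthase, which closes the sterol rings. Levels were 16.8, 25.3, 11.4, 15.6 and 12.3 CPM in LLC fat and 39.1, 44.4, 46.8 and 24.3 CPM in PBS fat at day 21. The only overlap was LLC library 2, the highest of its group, with PBS library 4, and the log2 fold change was -1.27 ± 0.26 (edgeR adjusted p = 0.0638, DESeq2 0.000947). Sqle, squalene epoxidase, a control point of the route, measured 24.4, 13.4, 7.64, 12.5 and 5.14 CPM in LLC fat and 21.8, 25.2, 29.1 and 13.4 CPM in PBS fat. Its spread within LLC fat was wide, LLC library 1 lay among the PBS libraries, and the log2 fold change of -0.84 ± 0.41 had an unadjusted p of 0.0689. Fdft1, squalene synthase, ran 40.7 to 130.3 CPM in LLC fat and 62.6 to 171 CPM in PBS fat, a log2 fold change of -0.57 ± 0.39. Its annotated span shares 774 bases with that of Ctsb on the opposite strand, a lysosomal protease gene at 769 TPM, and no strand-marking step is given in the labels, so Fdft1 counts are less certain.

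Of the 8 enzymes that turn lanosterol into cholesterol, all 8 had estimates below 0, beside 48.06% of all genes. The unadjusted p was under 0.05 for 5 of the 8, beside 23.3% of all genes. Sc5d, a desaturase that acts late in the route, measured 77.4, 111, 55.2, 48.1 and 48.2 CPM in LLC fat and 152, 171, 270.4 and 76.5 CPM in PBS fat. The overlap came again from PBS library 4, which lay below LLC libraries 1 and 2, and the log2 fold change was -1.32 ± 0.37 (edgeR adjusted p = 0.0986, DESeq2 0.0106). Dhcr7, the reductase of a final step, measured 16.02, 15.7, 9.28, 10.01 and 7.20 CPM in LLC fat and 25.7, 31.1, 28.3 and 18.2 CPM in PBS fat. No LLC library reached the lowest PBS library, and the log2 fold change was -1.17 ± 0.26 (edgeR adjusted p = 0.0751, DESeq2 0.00249).

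Tm7sf2, a sterol reductase, and Nsdhl, a sterol dehydrogenase, were also separated at day 21. Tm7sf2 ran 2.23 to 4.45 CPM in LLC fat and 6.70 to 9.84 CPM in PBS fat, at a log2 fold change of -1.19 ± 0.24 (edgeR adjusted p = 0.0634). Its span overlaps that of Vps51 by 532 bases, so part of its count may be shared. Nsdhl ran 15.03 to 40.2 CPM in LLC fat and 41.9 to 75.2 CPM in PBS fat, at -1.07 ± 0.28 (edgeR adjusted p = 0.0897). The remaining enzymes of this stage differed less relative to their spread. Msmo1, a methylsterol oxygenase, had a log2 fold change of -0.81 ± 0.32, and Hsd17b7, a sterol ketone reductase, one of -0.43 ± 0.28. Ebp, a sterol isomerase, was at -0.06 ± 0.17, with both groups close together at 27.3 to 50.98 CPM in LLC fat and 32.5 to 40.5 CPM in PBS fat. Cyp51, the lanosterol demethylase, ran 15.7 to 109.5 CPM in LLC fat and 34.8 to 69.2 CPM in PBS fat, with LLC library 4 the highest of all 9 libraries. Its log2 fold change was -0.23 ± 0.55, and without that library -0.92.

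Among the 6 genes that control SREBP2, 3 had estimates above 0 and 3 below 0 at day 21. The unadjusted p was under 0.05 for 1 of the 6, beside 23.3% of all genes. Insig1, a retention protein whose gene is itself a target of SREBPs, had the largest estimate in size of all 26 genes. It measured 152, 360.3, 82.3, 106 and 88.2 CPM in LLC fat and 356, 494, 1008 and 306 CPM in PBS fat. LLC library 2 was the highest of its group and overlapped the lowest PBS libraries, while the other 4 LLC libraries lay below all 4 PBS libraries. The log2 fold change was -1.80 ± 0.52 (edgeR adjusted p = 0.102, DESeq2 0.00804, exact two-sided permutation p = 0.0476). Srebf2 ran 36.3 to 84.5 CPM in LLC fat and 41.1 to 48.9 CPM in PBS fat, a log2 fold change of 0.36 ± 0.22 with an approximate 95% interval of -0.07 to 0.79. Without PBS library 4 and LLC libraries 1 and 3 the Srebf2 value was -0.00037, so its sign depends on those libraries.

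Mbtps2, the second of the Golgi proteases that free SREBP2, measured 22.1, 21.00, 16.5, 18.8 and 17.4 CPM in LLC fat and 15.5, 15.2, 17.8 and 15.98 CPM in PBS fat. Most LLC libraries were above most PBS libraries, with PBS library 3 between them, and the log2 fold change was 0.23 ± 0.12 (edgeR adjusted p = 0.289). Mbtps1, the first of these proteases, was at 0.04 ± 0.11, the escort Scap at -0.07 ± 0.09 and Insig2, a retention protein less dependent on sterols, at -0.19 ± 0.15. Their approximate 95% intervals were -0.17 to 0.25 for Mbtps1, -0.24 to 0.10 for Scap and -0.48 to 0.10 for Insig2, so a difference of the size seen in Hmgcs1 lay outside each of them. Stard4, a soluble carrier that moves sterol between membranes, measured 24.1, 13.4, 16.3, 11.1 and 12.9 CPM in LLC fat and 11.3, 11.5, 20.1 and 11.9 CPM in PBS fat. The groups overlapped fully, each with 1 high library, and the log2 fold change was 0.16 ± 0.27.

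Within LLC mice, the route was lower at day 21 than at day 7, and here 6 enzymes passed the test. In comparisons between days within a group, day, harvest and deposited table go together and cannot be told apart. Hmgcs1, Mvk, Pmvk, Idi1, Sc5d and Dhcr7 were lower at day 21. These were 6 of the 26 genes, beside 1.77% of all genes called in either direction and 0.93% called lower. DESeq2 called 11 of the 26, beside 5.98% of all genes, and the unadjusted edgeR p was under 0.05 for 16, of which 15 were lower, beside 18.6%. In 7 genes, the 6 named and Tm7sf2, every day 21 LLC library lay below every day 7 LLC library, beside 1.64% of all genes. On GRCm38 these genes lie at chr13:119690379-119708260 (Hmgcs1), chr5:114444269-114460591 (Mvk), chr3:89454541-89469013 (Pmvk), chr13:8885501-8892451 (Idi1), chr9:42251595-42264256 (Sc5d) and chr7:143823145-143848410 (Dhcr7). The median log2 fold change was -0.61 over the 26 genes and 0.05 over all 13975 genes tested.

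Hmgcs1 averaged 126.2 ± 34.95 CPM in LLC fat at day 21, against 263, 229, 186, 418 and 374 CPM in the day 7 LLC libraries. Its log2 fold change was -1.22 ± 0.26 (edgeR adjusted p = 0.0333). Sc5d averaged 67.97 ± 26.9 CPM at day 21, against 196, 187, 124, 176 and 160.0 CPM at day 7. This was the largest difference among the 6, at -1.31 ± 0.30 (edgeR adjusted p = 0.0423), and no day 21 LLC library reached the lowest day 7 one. Dhcr7 averaged 11.6 ± 3.98 CPM at day 21, against 29.8, 23.7, 17.3, 22.8 and 21.4 CPM at day 7, a log2 fold change of -0.98 ± 0.21 (edgeR adjusted p = 0.0337).

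Of the 3 mevalonate enzymes still to be given, Idi1 averaged 35.03 ± 10.8 CPM in day 21 LLC fat, against 76.6, 78.04, 56.8, 65.97 and 54.9 CPM in day 7 LLC fat. Its log2 fold change was -0.92 ± 0.21 (edgeR adjusted p = 0.0423). Pmvk averaged 30.5 ± 7.52 CPM at day 21, against 58.5, 52.2, 41.7, 57.4 and 52.7 CPM at day 7, a change of -0.79 ± 0.18 (edgeR adjusted p = 0.0426). The kinase Mvk had the smallest change of the 6. It averaged 15.3 ± 2.13 CPM at day 21, against 25.4, 23.6, 21.7, 23.3 and 18.1 CPM at day 7, or -0.55 ± 0.12 (edgeR adjusted p = 0.037).

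These calls sat close to the threshold. They numbered 0 without LLC library 3 or 4 of day 21 or LLC library 1, 2 or 4 of day 7, beside 0.108% to 0.675% of all genes. They numbered 12 without LLC library 1 of day 21, beside 7.44% of all genes, and 10 without LLC library 2 of day 21, beside 4.32%. Without LLC library 5 of day 21 or 3 of day 7 there were 2 calls, beside 1.38% and 0.373% of all genes, and without LLC library 5 of day 7 there were 3, beside 1.25%. PBS libraries enter through the shared estimate of spread. Without PBS library 1 or 2 of day 7 there was 1 call, without PBS library 2 of day 21 there were 2, and without PBS library 1 of day 21 or 3 or 4 of day 7 there were 3, beside 0.593% to 1.07% of all genes. With limma on log2(TPM + 1) or log2(TPM + 0.1) there was 1 call, beside 0.369% and 0.188% of all genes, while the log2 fold change of each of the 6 was below 0 in all of these fits. Insig1 averaged 158 ± 117 CPM in day 21 LLC fat, against 318, 431, 229.5, 399 and 696 CPM in day 7 LLC fat, and its log2 fold change of -1.39 ± 0.46 did not pass (edgeR adjusted p = 0.119, DESeq2 0.0296). Lss, at -0.84 ± 0.22, had an adjusted p of 0.0648, and Sqle, at -0.87 ± 0.33, one of 0.172 by edgeR. Scap, the escort, was the only one of the 16 with a positive estimate, 0.20 ± 0.07 (edgeR adjusted p = 0.121). For Srebf2 no difference was detected, with 59.00 ± 18.4 CPM in day 21 LLC fat and 60.5 ± 3.45 CPM in day 7 LLC fat (SD, n = 5 each) and an approximate 95% interval of -0.34 to 0.27.

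In PBS mice, by edgeR's adjusted p, 0 of the 26 genes passed in day 21 PBS against day 7 PBS fat, beside 3.21% of all genes, and DESeq2 also called 0, beside 8.0%. The unadjusted p was under 0.05 for 4 genes, beside 20.4% of all genes. Those were Acat2 at 0.67 ± 0.26, Pmvk at 0.44 ± 0.20, Scap at 0.18 ± 0.07 and Srebf2 at -0.40 ± 0.17. Srebf2 averaged 45.3 ± 3.42 CPM in day 21 PBS fat and 59.6 ± 4.18 CPM in day 7 PBS fat, with no overlap. The median over the 26 was 0.02. With limma on TPM it was -0.191 and -0.197 (pseudocounts 1 and 0.1), beside -0.178 and -0.198 over all genes. On the count scale Hmgcs1 (approximate 95% interval -0.88 to 0.23), Sc5d (-0.92 to 0.38) and Dhcr7 (-0.44 to 0.46) had intervals that spanned 0.

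At day 7, before cachexia, the estimates of the 26 genes lay between -0.52 and 0.12 on the log2 scale. By edgeR's adjusted p, 0 of the 26 passed, beside 0.00744% of all genes, and DESeq2 called 0, beside 0.597%. The unadjusted p was under 0.05 for 1 gene, beside 8.51% of all genes, and the authors' deposited table lists an FDR under 0.05 for 0 of the 26, beside 0.21% of its rows. The median log2 fold change was -0.10 over the 26 genes, and it was 0.013 without PBS library 3, the library that held the most skeletal muscle RNA and was highest of its group for 16 of the 19 enzymes. The gene with the smallest p was Mvk, with 25.4, 23.6, 21.7, 23.3 and 18.1 CPM in day 7 LLC fat and 25.5, 24.6, 28.3 and 26.3 CPM in day 7 PBS fat. Only LLC library 1 reached into the PBS range, and the log2 fold change was -0.22 ± 0.10 (edgeR adjusted p = 0.578, exact two-sided permutation p = 0.0317). Hmgcs1 was at -0.28 ± 0.27, Sc5d at -0.26 ± 0.20 and Insig1 at -0.22 ± 0.35, each with groups that overlapped.

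The change in the tumour effect between the days was tested directly, as LLC over PBS at day 21 minus LLC over PBS at day 7, which is also the day difference within LLC minus that within PBS. By edgeR's adjusted p, 0 of the 26 passed, beside 0.415% of all genes. The unadjusted p was under 0.05 for 14, of which 13 had a more negative effect at day 21, beside 18.2% of all genes, and DESeq2 called 4, beside 5.31%. Those 4 were Pmvk (-1.23 ± 0.27, DESeq2 adjusted p = 0.00256), Tm7sf2 (-0.99 ± 0.27, 0.0114), Lss (-1.08 ± 0.33, 0.0383) and Dhcr7 (-0.99 ± 0.31, 0.046). By edgeR their adjusted p were 0.0584 for Pmvk, 0.0858 for Tm7sf2, 0.109 for Lss and 0.116 for Dhcr7. Mbtps2 was the gene of the 14 with the opposite sign, at 0.35 ± 0.15. Without PBS library 4 of day 21, edgeR called 6 of the 26, beside 8.64% of all genes. Without LLC library 2 of day 21 it called 3, beside 2.65%, and without LLC library 1 of day 21 it called 1, beside 1.20%.

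Other genes of sterol handling were followed in 5 lists. Among 11 further genes that feed or complete the route, 10 were tested at day 21 and 7 had estimates below 0, with a median of -0.73. By edgeR's adjusted p 0 were called, by the unadjusted p 4 (3 lower and 1 higher) beside 23.3% of all genes, and by DESeq2 2 (both lower) beside 11.6%. Acss2, which makes acetyl-CoA from acetate, averaged 121 ± 92.1 CPM in LLC fat and 498 ± 133 CPM in PBS fat, a log2 fold change of -2.06 ± 0.50 (edgeR adjusted p = 0.0774). Aacs, which returns ketone bodies to lipid synthesis, averaged 315 ± 90.2 CPM in LLC fat and 604 ± 157 CPM in PBS fat, at -0.96 ± 0.26 (edgeR adjusted p = 0.0971). Lbr, whose protein shares the reductase activity of Tm7sf2, had the opposite sign at 0.62 ± 0.25, with 39.8 ± 13.8 CPM in LLC fat and 25.6 ± 4.68 CPM in PBS fat (edgeR adjusted p = 0.186). The genes of these alternative enzymes, Lbr and Tm7sf2, thus had estimates of opposite sign.

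In the list of 11 genes of cholesterol uptake, storage and export, 7 had positive and 4 negative estimates at day 21. By edgeR's adjusted p 0 were called, by the unadjusted p 5 (3 lower and 2 higher) and by DESeq2 4 (3 lower and 1 higher), to be read beside the same 23.3% and 11.6%. Cav1, the caveolar coat protein that binds cholesterol at the adipocyte surface, averaged 1011 ± 248 CPM in day 21 LLC fat and 1986 ± 328 CPM in day 21 PBS fat, a log2 fold change of -0.99 ± 0.23 (edgeR adjusted p = 0.0751). Within LLC it was lower at day 21 than at day 7, at -0.72 ± 0.16 (edgeR adjusted p = 0.042). Npc2, which lifts cholesterol out of lysosomes, averaged 410.4 ± 58.3 CPM in day 21 LLC fat and 608 ± 31.6 CPM in day 21 PBS fat, and 549 ± 41.2 CPM in day 7 LLC fat and 476 ± 41.9 CPM in day 7 PBS fat. Its tumour effect differed between the days by -0.77 ± 0.15 (edgeR adjusted p = 0.0415). Within LLC, Npc2 was lower at day 21 than at day 7, at -0.42 ± 0.10 (edgeR adjusted p = 0.0477). Lrp1, an endocytic lipoprotein receptor, was lower in day 21 PBS than in day 7 PBS fat, at -0.71 ± 0.18 (edgeR adjusted p = 0.0424). It was at 0.57 ± 0.20 in LLC over PBS fat at day 21.

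The 3 remaining lists gave 0 calls by edgeR's adjusted p at day 21, while DESeq2 called 3 branch genes and 0 in the other two lists, beside 11.6% of all genes, and the unadjusted counts that follow stand beside 23.3%. Of 8 genes of the LXR pathway, which senses sterol excess, 3 had estimates below 0 with an unadjusted p under 0.05, and the median was 0.05. Lpcat3, a membrane lipid enzyme induced by LXR, was at -0.48 ± 0.15 and Srebf1, the gene of the sister factor SREBP1, at -0.86 ± 0.34. The other 5 LXR pathway genes had estimates above 0, the largest that of Abcg1 at 0.83 ± 0.40 (edgeR unadjusted p = 0.0663). Of 11 genes on branches of the mevalonate route, 7 had estimates below 0 and 5 an unadjusted p under 0.05, led by Pdss2, of coenzyme Q synthesis, at -0.70 ± 0.15 (edgeR adjusted p = 0.0666). Of 7 genes that degrade the reductase of the route or INSIG, 5 had estimates below 0 and 2 an unadjusted p under 0.05, with a median of -0.09. The medians of these 3 lists lay closer to 0 than that of the 19 enzymes, -0.96, and the difference between lists was not tested.

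Marker lists of cell types were also set against the day 21 groups. Macrophage markers summed to 934 to 4507 TPM in LLC fat and 208 to 2667 TPM in PBS fat, ranges that overlapped. Of their estimates 8 of 8 were above 0. The unadjusted p was under 0.05 for 1 of the 8, beside 23.3% of all genes, and DESeq2 called 1, beside 11.6%. Markers of progenitors and fibroblasts summed to 2105 to 8161 TPM in LLC fat and 1175 to 6611 TPM in PBS fat, which also overlapped. Of their estimates 6 of 8 were above 0, with a median of 1.02. The unadjusted p was under 0.05 for 5, beside 23.3% of all genes, of which DESeq2 called 2, beside 11.6%. In PBS fat the library richest in both, PBS library 4, was the lowest for 17 of the 19 enzymes, and PBS library 3, the poorest in both, was the highest for 15. In LLC fat, by contrast, LLC library 1, richest in both, was the lowest for 0 of the 19, and LLC library 3 was the lowest for 10.

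Schwann cell and myelin markers, from cells that make much cholesterol for myelin, summed to 676, 818, 663, 329 and 375 TPM in day 21 LLC fat and 884, 1466, 977 and 873 TPM in day 21 PBS fat. These sums did not overlap. For single genes, 4.47% of all tested had every LLC library below every PBS library. Of the 7 estimates, 7 were below 0, beside 48.06% of all genes, and the median was -0.97. By edgeR's adjusted p 0 of 7 passed, beside 0.0885% of all genes. By the unadjusted p there were 4, beside 23.3%, and by DESeq2 4, beside 11.6%. Adipocyte markers had 7 of 8 estimates below 0 with a median of -0.25, and their summed levels overlapped. By the unadjusted p 3 of these 8 were lower, beside 23.3% of all genes, and by DESeq2 2, beside 11.6%. Plin1 was at -0.96 ± 0.21, while Cfd, at 0.18 ± 0.46, was the adipocyte marker with an estimate above 0. Endothelial markers summed to 314 to 579.6 TPM in LLC fat and 184 to 291 TPM in PBS fat. Skeletal muscle markers had 6 of 6 estimates below 0, at 2.42 to 1567 TPM in LLC fat and 8.30 to 4145 TPM in PBS fat. The part of these cell types in the enzyme differences was not tested.

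**Figure D4:**
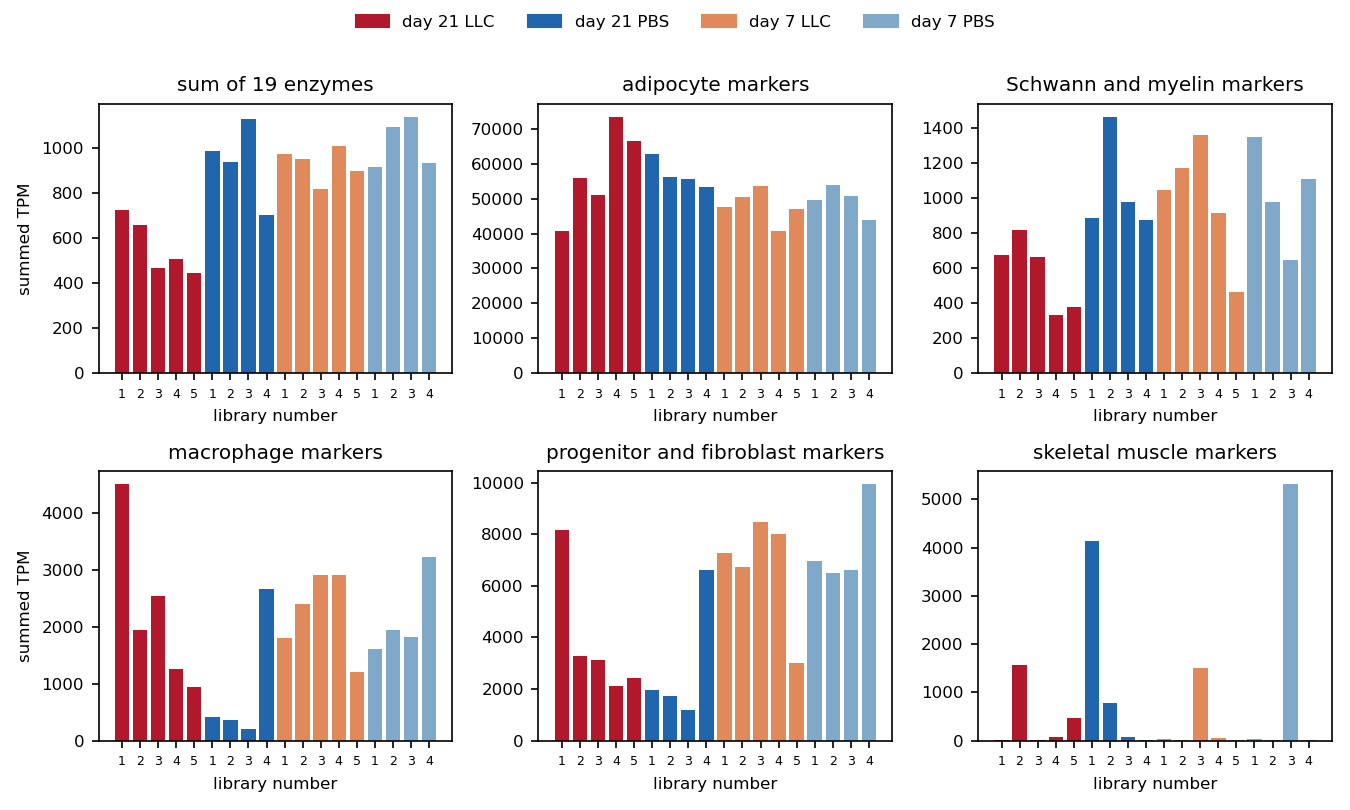
Summed TPM of the 19 enzymes and of 5 marker lists in each of the 18 libraries (bars, coloured by group), with axes from 0. The day 21 LLC bars of the enzymes lie between 447 and 724 TPM, and the Schwann and myelin bars of the same libraries lie below all 4 day 21 PBS bars.

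Between the days within LLC, macrophage markers had 7 of 8 estimates below 0 in day 21 LLC against day 7 LLC fat, with a median of -0.30, and progenitor markers 7 of 8, with a median of -0.38. Adipocyte markers were split 4 and 4, with a median of -0.02, and summed to 40650.0 to 73630.0 TPM at day 21 and 40790.0 to 53690.0 TPM at day 7. Schwann and myelin markers had 7 of 7 below 0, with a median of -0.59 beside -0.73 for the 19 enzymes. In day 21 LLC fat the median of the enzymes was below 0 against day 21 PBS (-0.96) and against day 7 LLC fat (-0.73). The medians of Schwann and myelin markers (-0.97 and -0.59) and of adipocyte markers (-0.25 and -0.02) were also below 0 in both. Those of macrophage and progenitor markers had opposite signs in those 2 comparisons, which share the day 21 LLC libraries. The part of these cell types was not tested.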

How the data were processed

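The deposited data cover 21899 gene IDs in a table for each day. Tools named in the submitters' processing notes are fastp 0.23.0 and RSEM (no version), and the builds are mm10 and GRCm38. Which aligner and annotation release were used is not given in the sources used here. Values deposited as counts were treated as estimated counts from RSEM that the authors had rounded, since 100% were whole while in 176 entries a count of 0 stood beside a positive TPM. The deposited TPM, made by the authors, correct for transcript length. The deposited log2 ratio, p-value and FDR columns are the authors' own comparisons and are quoted only as such. All per-sample columns were assigned to a library by name.

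Counts were tested with edgeR 4.0.16 in R 4.3.3 (TMM, filterByExpr, quasi-likelihood, two-sided, Benjamini-Hochberg over all genes, threshold 0.05). LLC against PBS used the 9 libraries of each day, and day contrasts used 1 fit of 18 libraries. The SE of a log2 fold change is its size divided by the square root of the F statistic, and approximate intervals are 1.96 SE to each side. Permutation tests used log2(CPM + 1). DESeq2 1.42.0, limma 3.58.1 on log2(TPM + 1) and log2(TPM + 0.1), other filters, scaling and left-out libraries were alternatives. Libraries of a group differed by more than sampling noise (lowest chi-square per gene 15.8). Same-numbered libraries did not all correlate above 0.1 on either day, so the numbers were not used as pairs. Genes given library by library were those past the threshold in any comparison and otherwise the 2 of each role with the smallest day 21 p, and of other lists up to 4 by that p. The 26 genes, the lists and the tests were chosen with earlier results of these data known. Coordinates are GRCm38 from GENCODE and promoter sequences are from RefSeq, GRCm38.p6.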

Additional observations from a re-analysis of the deposited data

Results flagged for a closer look

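Among the 26 genes, 104 groups of libraries were examined for a single library far from the rest of its group, and 5 were found, where chance gives about 1 in 20 groups. They are Cyp51 at 110 CPM in LLC library 4 of day 21, Insig1 at 360 CPM in LLC library 2 of day 21, Stard4 at 20.1 CPM in PBS library 3 of day 21, Hmgcs1 at 562 CPM in PBS library 2 of day 7 and Fdps at 43.6 CPM in PBS library 3 of day 7, each the highest of its group. The tumour effect differed between the days, by edgeR's adjusted p, for 2 genes of the lists. Npc2, of lysosomal cholesterol release, differed by -0.77 on the log2 scale (adjusted p = 0.0415). Tek, an endothelial receptor, differed by 0.99 (adjusted p = 0.0415), with 99.3 ± 14.1 CPM in LLC and 52.9 ± 10.9 CPM in PBS fat at day 21, and 97.6 ± 10.8 CPM in LLC and 103 ± 12.4 CPM in PBS fat at day 7.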

How the results depend on the processing

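Counts of called genes moved with the test, and the median log2 fold change of the 26 genes moved by less than the spread between libraries in each alternative. At day 21, LLC against PBS, the count of 0 stood beside 0.0885% of all genes. It became 12 with DESeq2, beside 11.6%, and 14 in 1 fit of all 18 libraries, beside 19%. With limma on log2(TPM + 0.1) it was 1, beside 0.46% of all genes. It was 7 when PBS library 4 and LLC libraries 1 and 3 were left out together, beside 7.18%. With 1 library left out it ran 0 to 9 (9 without PBS library 4, beside 9.30%, and 4 without LLC library 2, beside 0.709%). For the tumour effect by day the count of 0 became 4 with DESeq2, beside 5.31% of all genes. It ran 0 to 6 with 1 library left out (6 without PBS library 4 of day 21, beside 8.64%). Within LLC, the count of 6 became 11 with DESeq2, beside 5.98% of all genes. It was 1 with limma on either log2 TPM scale, beside 0.369% and 0.188%. With 1 library left out it ran 0 to 12 (12 without LLC library 1 of day 21, beside 7.44%). A replicate block, with the number as a term and LLC library 5 left out, gave 0 calls in every comparison. Within LLC and within PBS it ran across days and was added after seeing the data. The correlations of same-numbered libraries ran from -0.269 to 0.243 at day 21, with 0 of 4 best matched by their own number, and from 0.087 to 0.491 at day 7, with 3 of 4 so matched, a hint from the data at day 7 only. A block within each day leaves no day difference to test. Signs turned for several estimates, among them Srebf2 at day 21, which was 0.36 in the main fit. At day 21 these were Ebp (0.067, 0.0685) and Scap (0.0997, 0.103) with limma on log2(TPM + 1) and log2(TPM + 0.1), and Ebp 0.0317, Srebf2 -0.00037 and Stard4 -0.211 with those 3 libraries left out. Within PBS it was Scap (-0.0379, -0.0395) and within LLC Fdft1 (-0.129, -0.133) with limma, and within LLC Srebf2 0.0549 and Mbtps1 0.00427 with the replicate block. With 1 library left out, the day 21 ranges that crossed 0 were -0.0202 to 0.0866 for Mbtps1, -0.207 to 0.0654 for Ebp, -0.00881 to 0.407 for Stard4 and -0.92 to 0.0232 for Cyp51. Within LLC they were -0.125 to 0.0368 for Insig2, -0.163 to 0.0665 for Ebp, -0.201 to 0.218 for Fdft1, -0.0343 to 0.0359 for Mbtps1 and -0.209 to 0.0976 for Srebf2. TPM moved the median of all genes to 0.141 and 0.149 at day 21 (pseudocounts 1 and 0.1), beside members' medians of -0.669 and -0.684. The median of the 26 at day 7 ran -0.139 to 0.013 with 1 library left out and was 0.034 without libraries 3 of both groups. The cause of these shifts was not tested.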
